A study of Mus musculus with 6 samples.

Results

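The cytosolic ribosomal proteins are the protein parts of the 80S ribosome of the cytoplasm. Their genes were taken here by symbol, as Rpl and Rps genes with a number and at most a short paralog suffix, together with Rplp0, Rplp1, Rplp2 and Rpsa. S6 kinases and symbols marked as pseudogenes were left out. Only probe sets annotated with exactly 1 gene symbol were used, and each gene was represented by its brightest probe set. This gave 61 genes, 38 of the large and 23 of the small subunit, out of 19938 genes measured in this way. Levels were compared between oocytes of wildtype mice and oocytes of mice homozygous for a Brwd1 mutation. Both groups had the B6/C3H background, and all females, aged 2 to 6 months, had received equine chorionic gonadotropin, which stimulates follicle growth, at 5 IU and 44 h ahead of oocyte collection. Oocytes were at the germinal vesicle stage, arrested before the first meiotic division resumes. Each sample was a pool of 100 oocytes on its own 1-colour Affymetrix array, with 3 pools per group. The labels name neither the part of Brwd1 that is altered nor whether pools came from separate mice, so p-values measure the spread between these samples only, which may be technical.

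Each ribosome holds 1 copy of nearly every ribosomal protein, so a cell needs them in matched amounts, and unassembled copies are degraded. The growing oocyte makes a large store of ribosomes and of messenger RNA for the early embryo, and its transcription falls silent as it reaches full size. Ribosomal protein messenger RNAs characteristically begin with a terminal oligopyrimidine tract, a run of C and U that lets the mTOR pathway and the RNA-binding protein LARP1 control their translation. Messenger RNA levels, as measured here, therefore do not show how much of the protein is made.

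The naming rule matched 89 symbols that RefSeq lists for GRCm38.p6, of which 84 are protein-coding and 5 are recorded as pseudogenes or transcribed pseudogenes. Of the 89, 61 had a probe set of their own, 17 were listed only on probe sets shared with other symbols, and 11 were not analysed here. Rpl3, Rpl11, Rpl39 and Rps27 are among those on shared probe sets only. The 61 genes had 217 single-symbol probe sets, which held 205 different rows of values, and 39 genes had more than 1. Ribosomal protein genes have many processed copies in the genome, with 321 symbols marked as such in the RefSeq table. Signal from a transcript and from its copies cannot be told apart on this array.

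Start regions of the genes that the results turn on are shown first, because the tract at the start of the transcript is what the family is known for. Each line gives 15 bases before and 15 bases from the RefSeq start in GRCm38.p6, 5′ to 3′, and capitals mark a run of at least 6 C or T that reaches the 5 bases on either side of the start.
Rps4x, chrX:102189377-102189406, minus strand: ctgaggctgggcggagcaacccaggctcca
Rps3, chr7:99483695-99483724, minus strand: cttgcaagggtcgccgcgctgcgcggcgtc
Rps28, chr17:33824548-33824577, minus strand: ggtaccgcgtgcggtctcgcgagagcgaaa
Rps6, chr4:86857353-86857382, minus strand: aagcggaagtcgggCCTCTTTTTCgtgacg
Rpl14, chr9:120571502-120571531, plus strand: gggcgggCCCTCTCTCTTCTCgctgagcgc
Rpl6, chr5:121204486-121204515, plus strand: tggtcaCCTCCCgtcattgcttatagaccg
Rpl37a, chr1:72711245-72711274, plus strand: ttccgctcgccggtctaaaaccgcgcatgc
Rpl26, chr11:68901551-68901580, plus strand: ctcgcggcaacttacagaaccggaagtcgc
Rpl39l, chr16:10170213-10170242, plus strand: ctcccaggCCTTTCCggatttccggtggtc
The run was 14 bases long in Rpl14, 10 in Rps6, 7 in Rpl39l and 6 in Rpl6, and the other 5 windows held none. RefSeq starts were not checked against mapped transcript starts. A window without a run therefore does not show that the messenger RNA lacks the tract. Rps4l is not shown.

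RefSeq windows of 300 bases, 250 before and 50 from the start, were found for 49 of the 61 genes, 58 windows in all. Such a pyrimidine run was present in 39.7% of them and in 20.2% of all 32851 windows of the table. The core CCGGAAG, read by GABP and other ETS factors, was present on either strand in 34.5% of these windows against 8.86% of all windows. The YY1 core AAGATGGC was present in 5.17% against 2.75%, the GC box GGGCGG in 56.9% against 35.7%, and the TATA box TATAAA in 10.3% against 13.6%. Among 75 windows of mitochondrial ribosomal protein genes the shares were 24% for the pyrimidine run, 34.7% for CCGGAAG, 16% for the YY1 core, 52% for the GC box and 6.67% for the TATA box. The ETS core was thus about as frequent there as in the cytosolic family. Motifs were counted separately, also where they overlap, and a match is only a description of the letters. For the 22 genes with a pyrimidine run the median mutant minus wildtype difference was -0.053 on the log2 scale, with 19 genes lower. For the 27 genes with a window but no such run at the RefSeq start it was -0.030, with 16 lower, and the difference between these sets was not tested. Runs farther from that start, as in Rpl13, were not counted, so these 27 genes are not known to lack the tract.

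Brwd1 itself was at 8.91, 9.08 and 8.98 in wildtype 1, 2 and 3 and at 4.41, 4.56 and 4.50 in mutant 1, 2 and 3. It was thus lower by -4.50 on the log2 scale (limma, adjusted p = 2.2e-06), with mutant levels close to the background guide. That guide is the 95th percentile of 1210 olfactory and vomeronasal receptor probe sets, 4.48. Over the whole array 32 of 23410 probe sets (0.137%) passed, 23 lower and 9 higher in the mutant (limma, Benjamini-Hochberg adjusted p under 0.05). All 10 oocyte markers, such as Zp3 and Gdf9, were above the guide, with summed log2 levels of 110.71 to 110.98 in wildtype and 111.19 to 111.38 in mutant samples.

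In the mutant the median of the ribosomal protein genes lay very slightly below wildtype, close to that of bright probe sets in general, and 1 of the 61 passed the test. That gene was Rps4l, which fell, and 0 rose. Among all probe sets 0.137% passed, 0.0982% as lower and 0.0384% as higher. Counted by gene, with the brightest probe set of each, 12 of 19938 passed as lower and 9 as higher. The log2 difference was below 0 for 45 genes and above 0 for 16, with a median of -0.047. Over all probe sets tested the median was 0.010 and 46.2% were lower. Of the 57 genes above the background guide, 42 were lower and 15 higher, with a median of -0.047. Bright probe sets were lower in general. In the upper quartile of levels, from a log2 level of 7.615 up, which holds 52 of the 61 genes, the median of all probe sets was -0.040 and 63.1% were lower. The 52 genes there had a median of -0.048, and 39 were lower. After cyclic loess normalization the family median was -0.020, with 38 lower, and after median centring -0.10, with 50 lower. Fewer cells of a type and less RNA per cell cannot be told apart in such pools.

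**Figure D1:**
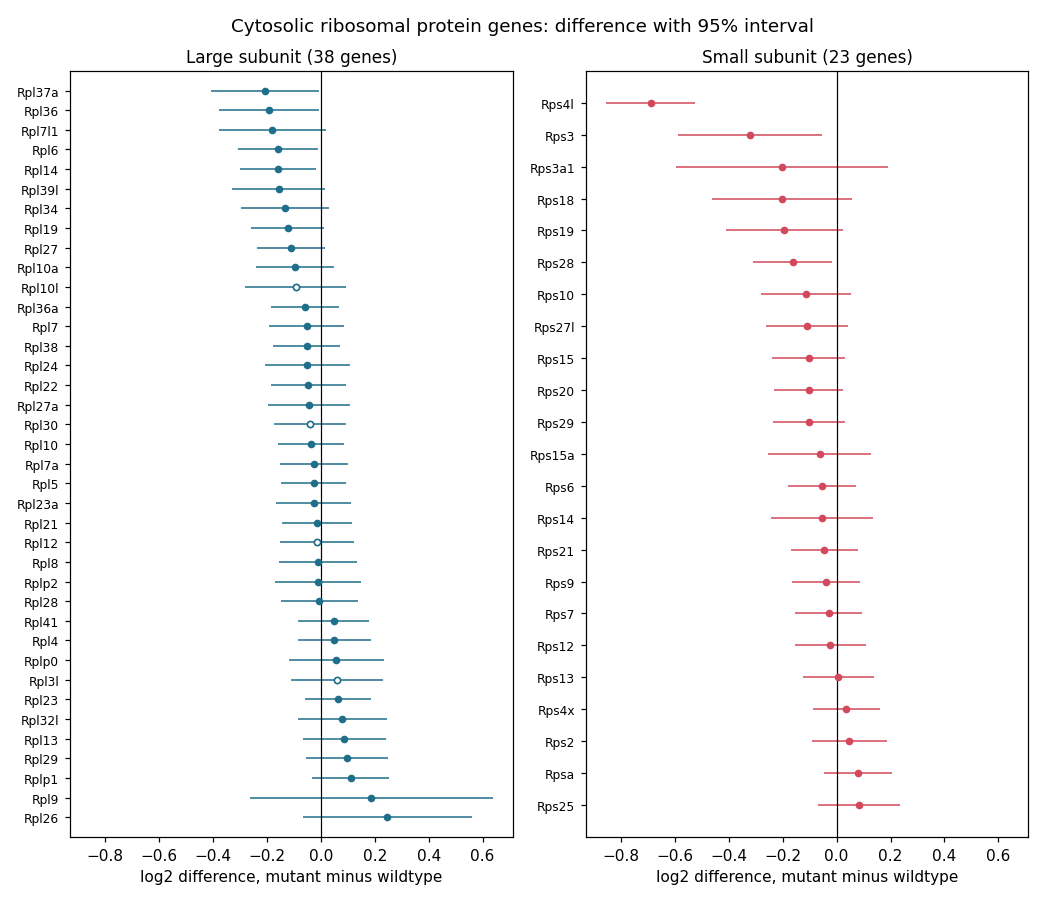
Mutant minus wildtype log2 difference of each of the 61 genes (points) with its 95% confidence interval from limma (bars), large subunit on the left and small subunit on the right. Open points mark the 4 genes at or under the background guide, and the point that stands apart from the others is Rps4l at -0.69.

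At an unadjusted limma p under 0.05, 7 genes were lower and 0 higher, where 7.4% of all probe sets were lower and 7.3% higher at that threshold. Together these 7 make 11.5% of the family, against 14.7% of all probe sets in either direction. The groups did not overlap for 18 genes that were lower in the mutant and for 3 that were higher. Over all probe sets the shares were 9.66% and 10.1%, or 19.7% in all. In the upper quartile of levels they were 18.8% and 6.94%, against 34.6% and 5.77% of the 52 family members there. The share lower at an unadjusted p under 0.05 was 12.9% in that quartile and 13.5% of these 52 genes. The count of 7 changed when single samples were left out. Without wildtype 1 it was 1 lower and 1 higher, without mutant 3 it was 2 lower, and without wildtype 3 it was 10 lower. The other omissions gave 3 lower without wildtype 2, 5 without mutant 1, and 3 lower and 1 higher without mutant 2. An omission also leaves fewer arrays for every probe set. The share of all probe sets in each omission is not given here, so these changes are not shown to be particular to the family.

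The measurements were precise enough to bound most of these differences. The median standard error (SE) was 0.060 on the log2 scale, against 0.081 over all probe sets. The 95% interval lay wholly between -0.3 and 0.3 for 47 of the 61 genes and between -0.5 and 0.5 for 56. Differences were under 0.1 in size for 38 genes, from 0.1 to 0.25 for 21, and larger for 2, Rps4l and Rps3. The counts of 47, 56 and 38 include Rpl3l, Rpl10l, Rpl12 and Rpl30. These were under the background guide, so their narrow intervals bound no usable level. RMA brings the arrays to nearly equal distributions, so these bounds apply to levels relative to other transcripts. A change in the total messenger RNA of the oocyte would not be seen.

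**Figure D2:**
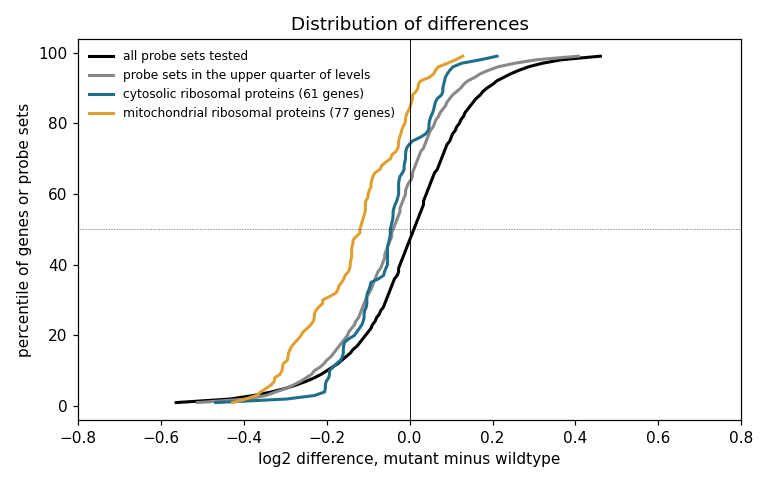
Percentile curves of the mutant minus wildtype log2 difference (horizontal axis) for the cytosolic ribosomal proteins, the mitochondrial ribosomal proteins, probe sets in the upper quartile of levels and all probe sets tested. At the 50th percentile the cytosolic curve is at -0.047, next to the upper quartile at -0.040, and the mitochondrial curve is at -0.12.

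Rps4l was the exception. It is a relative of Rps4x, the X-linked gene of small subunit protein S4, and RefSeq records it as a transcribed pseudogene with a non-coding transcript. Its brighter probe set read 8.57, 8.46 and 8.46 in wildtype 1, 2 and 3 and 7.71, 7.89 and 7.82 in mutant 1, 2 and 3. All 3 mutant samples lay below all wildtype samples, and the gap between the groups was wider than the spread within either. It fell by 0.69 on the log2 scale, or 1.61-fold (SE 0.070 log2, n = 3 per group; limma, Benjamini-Hochberg adjusted p = 0.0315). This call did not survive any omission of 1 sample, where the difference ran from -0.73 to -0.64 and the limma adjusted p from 0.0553 to 0.156. The same gene stands among the earlier results of these data, so this value is no independent evidence.

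A dimmer probe set of Rps4l read 7.93, 7.82 and 7.88 in the wildtype pools and 7.56, 7.49 and 7.69 in the mutant pools. Its groups did not overlap either, but the difference was smaller, at -0.30 (SE 0.071), and did not pass (limma, adjusted p = 0.171). The brighter exceeded the dimmer by 0.64, 0.64 and 0.58 in wildtype and by 0.15, 0.40 and 0.13 in mutant samples. The 2 probe sets thus differed in their response by -0.39, with no overlap (exact permutation test over samples, two-sided, p = 0.1, the smallest that 3 against 3 allows). The array annotation gives both the same transcript accession, and RefSeq also lists a copy named Rps4l-ps. Whether the dimmer probe set reads Rps4l or that copy was not tested.

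Rps4x did not share the difference. It read 11.22, 11.22 and 11.19 in the wildtype pools and 11.25, 11.21 and 11.28 in the mutant pools, so the groups overlapped. The log2 difference was 0.037 (SE 0.053, 95% interval -0.089 to 0.16), and its 5 probe sets ran from 0.020 to 0.037. After median centring of the arrays, which lowers all differences alike and puts the median of all probe sets at -0.047, Rps4x was at -0.020.

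**Figure D3:**
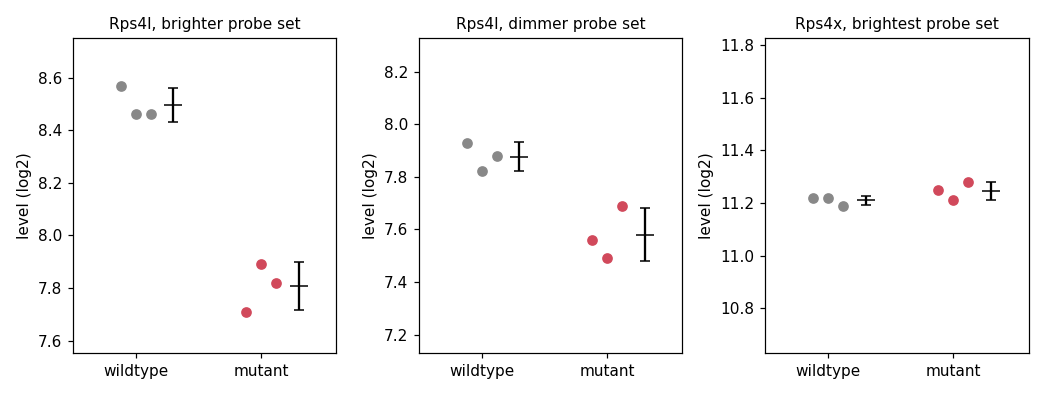
Log2 level in each sample (points) for the brighter and the dimmer probe set of Rps4l and the brightest probe set of Rps4x, with the mean and SD of 3 samples per group (bars). All panels span the same height, and the mutant points are below the wildtype points in both Rps4l panels but not for Rps4x.

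The small subunit carries the messenger RNA and its decoding centre. Its 23 genes had a median difference of -0.063, with 18 lower and 5 higher, and 1 passed, Rps4l. Without Rps4l the median of the remaining 22 was -0.058, 17 were lower and 0 passed, and 2 were lower at an unadjusted limma p under 0.05, Rps3 and Rps28.

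Rps3, a protein at the messenger RNA entry site that also has a role in DNA repair, had the largest difference after Rps4l. It read 9.37, 9.04 and 9.20 in the wildtype pools and 9.02, 8.92 and 8.71 in the mutant pools. The highest mutant value lay just under the lowest wildtype value, and the samples of each group spread over about 0.3. The difference was -0.32 (SE 0.113; limma, adjusted p = 0.276). Rps28, a small protein near the mRNA exit site, read 11.32, 11.27 and 11.19 against 11.08, 11.15 and 11.06. Its groups did not overlap, and its difference was -0.16 (SE 0.062; limma, adjusted p = 0.293).

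Rps19, the gene most often mutated in Diamond-Blackfan anaemia, read 8.22, 8.21 and 8.10 in wildtype and 8.07, 7.80 and 8.08 in mutant samples. Its groups did not overlap, though most of its difference of -0.19 (limma, adjusted p = 0.385) lay in mutant 2. Rps6, the substrate of S6 kinase, differed by -0.053, with levels of 10.45 to 10.52 against 10.41 to 10.44. Rps18 and Rps3a1 were both at -0.20, and for both the wildtype samples alone spread over more than that difference. Rpsa, which is also known as the laminin receptor, was higher without overlap, at 11.08, 11.06 and 11.03 against 11.10, 11.16 and 11.15. Its difference was 0.080 (limma, adjusted p = 0.530), and its 5 probe sets ran from -0.11 to 0.087. Rps25, which is needed for some internal ribosome entry sites, was at 0.083 and Rps2 at 0.047, with overlapping groups.

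The large subunit forms peptide bonds and holds the exit tunnel. Its 38 genes had a median difference of -0.032, with 27 lower and 11 higher, and 0 passed, while 4 were lower at an unadjusted limma p under 0.05. These were Rpl14, Rpl6, Rpl37a and Rpl36, with limma adjusted p-values of 0.291 to 0.323. Rpl14 read 8.26, 8.26 and 8.18 in the wildtype pools and 8.09, 8.01 and 8.12 in the mutant pools, a difference of -0.16 (SE 0.060). Rpl6 read 10.11, 10.05 and 10.05 against 9.99, 9.84 and 9.90, also a difference of -0.16 (SE 0.062). The groups of neither gene overlapped.

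Rpl36 and Rpl37a were highest in wildtype 1 and lowest among the wildtype samples in wildtype 3. Rpl36 read 11.30, 11.20 and 11.04 against 11.03, 10.96 and 10.97, a difference of -0.19. Rpl37a, a zinc-binding protein, read 10.53, 10.40 and 10.29 against 10.30, 10.11 and 10.19, a difference of -0.21, and its groups overlapped. For Rpl36 the lowest wildtype and the highest mutant sample all but touched. Rpl19, at -0.12, followed in rank without reaching that threshold (limma, adjusted p = 0.377).

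Among large subunit genes that were higher in the mutant, Rpl26 had the largest difference. Rpl26, which also binds the p53 messenger RNA, read 9.07, 9.0 and 9.07 in the wildtype pools and 9.24, 9.05 and 9.59 in the mutant pools. The difference of 0.25 (SE 0.132; limma, adjusted p = 0.437) rested mostly on mutant 3. Rpl29 was at 0.097 and Rpl13 at 0.087, both with overlapping groups. Rpl23, which like Rpl5 can bind Mdm2, was at 0.063 without overlap, but at -0.017 as the mean of its 2 probe sets. Rpl5, part of the 5S ribonucleoprotein, was at -0.027 with a 95% interval of -0.15 to 0.094.

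The stalk proteins recruit and activate the GTPases of translation. Rplp0, the base of the stalk, read 10.80, 10.75 and 10.57 in wildtype and 10.73, 10.79 and 10.77 in mutant samples, a difference of 0.057. Without wildtype 3 it was at -0.012. Rplp1 read 11.62, 11.48 and 11.57 against 11.65, 11.69 and 11.66, so that every mutant sample was above every wildtype sample. Its difference was 0.11 (SE 0.060; limma, adjusted p = 0.445). Rplp2, its partner in the stalk dimers, read 5.51, 5.38 and 5.33 against 5.35, 5.41 and 5.43, a difference of -0.010, which was above 0 without wildtype 1 or without mutant 1, at 0.042 and 0.013. Levels of different probe sets are not comparable, so the low reading of Rplp2 says nothing about stoichiometry.

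The median of the large subunit was 0.032 above that of the small subunit. By sample, the median deviation of the large subunit genes from their own means, minus that of the small subunit genes, was -0.036, -0.043 and -0.0033 in wildtype 1, 2 and 3. The mutant samples had 0.016, -0.012 and 0.023. The groups overlapped, since mutant 2 lay below wildtype 3. This is a description, with no test.

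Paralogs named with an l suffix differ from the main copies in where they are expressed, and several are known best from testis or muscle. The 7 measured were Rpl3l, Rpl7l1, Rpl10l, Rpl32l, Rpl39l, Rps4l and Rps27l, with 5 lower, 2 higher and 1 passing. Rpl39l, a form enriched in male germ cells, read 10.05, 9.90 and 9.82 in the wildtype pools and 9.77, 9.79 and 9.74 in the mutant pools. Its groups did not overlap, and the difference was -0.16 (SE 0.073; limma, adjusted p = 0.379). Rps27l, a p53 target, was at -0.11 (limma, adjusted p = 0.478), with overlapping groups. Rpl7l1, a nucleolar relative of Rpl7, was at -0.18 (limma, adjusted p = 0.380), and Rpl32l at 0.080. Rpl10l, which stands in for the X-linked Rpl10 in male meiosis, and Rpl3l, the striated muscle form, were under the background guide in both groups, at means of 4.16 and 4.07 and of 3.85 and 3.91.

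For 3 paralogs the main copy was also measured by a probe set of its own, so that the ratio within each sample could be compared. The log2 ratio of Rps4l to Rps4x was -2.65, -2.76 and -2.73 in the wildtype pools and -3.54, -3.32 and -3.46 in the mutant pools. It was lower by -0.73 in the mutant without overlap (exact permutation test, two-sided, p = 0.1, adjusted p = 0.3 over 3 pairs). For Rpl7l1 over Rpl7 the mutant minus wildtype ratio was -0.13 (exact permutation test, p = 0.4, adjusted p = 0.6). For Rpl10l over Rpl10 it was -0.057 (exact permutation test, p = 0.7, adjusted p = 0.7), with Rpl10l under the guide. With 3 samples per group no such ratio could reach a p below 0.1. Of the main copies, Rpl7 was at -0.053, Rpl10 at -0.037, Rpl22 at -0.047 and Rpl36a at -0.060.

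Samples differed in how often they held the highest level of a family gene. Wildtype 1 was the highest of the 6 samples for 34 of the 61 genes, wildtype 2 for 10, mutant 3 for 6, and the other samples for 3 or 4 each. Ties went to the sample listed first, which favours wildtype 1. Its count thus includes tied genes such as Rpl14, at 8.26 in wildtype 1 and 2, and Rpl4, at 10.77 in wildtype 1 and mutant 2. The median deviation of the 61 genes from their own means was 0.052, 0.015 and -0.0083 in wildtype 1, 2 and 3 and -0.022, -0.023 and -0.017 in mutant 1, 2 and 3. The 3 mutant samples agreed closely, while wildtype 3 lay nearer to them than to wildtype 1. Without wildtype 1 the median difference was -0.035 and 41 genes were lower, and over all omissions of 1 sample the number lower ran from 41 to 46.

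**Figure D4:**
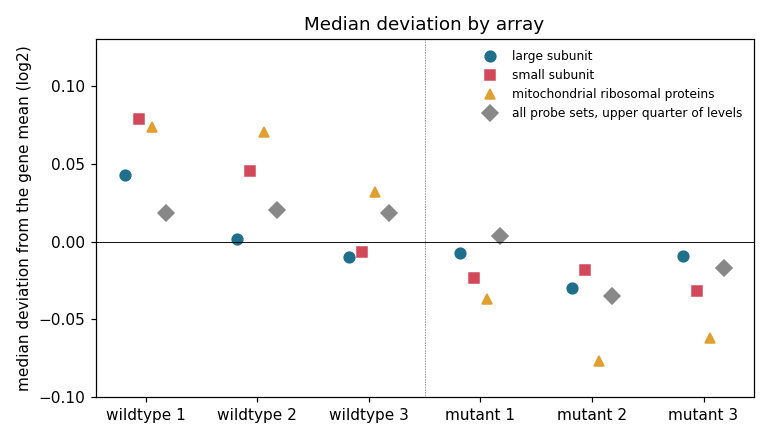
Median deviation from each gene's own mean over 6 arrays (log2 scale) in each sample, for large subunit genes, small subunit genes, mitochondrial ribosomal proteins and all probe sets in the upper quartile of levels. Wildtype 1 is highest for both subunits, at 0.043 and 0.078, and the mitochondrial list is above 0 in every wildtype and below 0 in every mutant sample.

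Genes with several probe sets gave a check on the values. In 32 of 39 such genes all probe sets lay on the same side of 0, and in 29 their differences spanned less than 0.1. The median span was 0.050 and the widest 0.39, in Rps4l. Rpl36 had 9 probe sets between -0.21 and -0.17, Rps28 had 7 between -0.18 and -0.14, and Rpl13 had 9 between 0.043 and 0.11. Rps12, with 14 probe sets holding 8 different rows of values, ran from -0.060 to -0.0033. Rps2 disagreed, from -0.24 to 0.047. Probe sets of a gene can share probes or read the same copies, so their agreement is not replication.

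**Figure D5:**
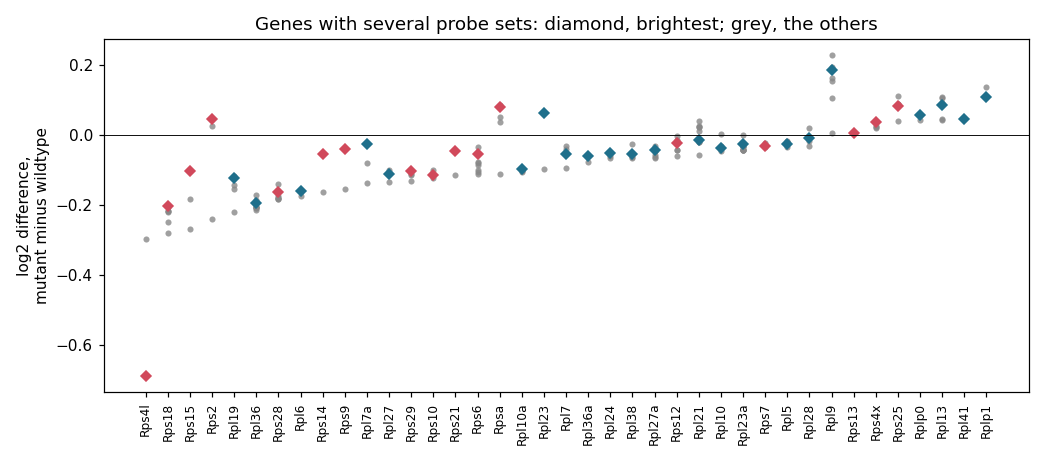
Mutant minus wildtype log2 difference of every probe set of the 39 genes with more than 1, ordered by the lowest. Diamonds are the brightest probe set of each gene, blue for the large and red for the small subunit, and grey points are the others, which lie close to the diamond in most genes and 0.39 away in Rps4l.

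Genes that build and use ribosomes were examined beside their protein components, from lists chosen with earlier results of these data known. None of their members passed over all probe sets by limma. Of 46 ribosome assembly factors 27 were lower and 19 higher, with a median of -0.028. At an unadjusted limma p under 0.05, 6 were lower and 3 higher, and of these 3 Rrs1 and Mdn1 were under the background guide. The shares of the list were 13.04% lower and 6.52% higher, against 12.9% and 4.54% of probe sets in the upper quartile of levels. Over all probe sets the shares were 7.4% and 7.3%. Nmd3, the export adaptor of the large subunit, was at 9.14, 9.06 and 9.15 in wildtype and 9.54, 9.54 and 9.61 in mutant samples. Its difference of 0.45 (SE 0.058; limma, adjusted p = 0.0640) passed when only probe sets above the median level were tested, at an adjusted p of 0.0476, and with limma's trend and robust settings, at 0.0172. Imp4, a processome component of the small subunit, was at -0.29 (limma, adjusted p = 0.144).

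RNA polymerase I, which transcribes the ribosomal RNA precursor, and its factors had a median of -0.072 over 20 genes, with 14 lower and 5 higher. At an unadjusted limma p under 0.05, 5 were lower, or 25% of the list. The share lower was 7.4% of all probe sets and 12.9% in the upper quartile of levels. Polr1a, its largest subunit, was at -0.28 and Polr1d at -0.18 (limma, adjusted p = 0.222 and 0.232). The 8 chaperones of ribosomal proteins had a median of -0.010, with 4 lower and 4 higher. Those with the smallest p were Pdcd2l at -0.19 and Bccip at -0.18, and Aamp was at 0.16. The 13 genes of mTORC1 and the control of pyrimidine-tract messages had a median of 0.0067, with 6 lower and 7 higher. Mtor was at -0.20, Mlst8 at -0.39, Larp1 at -0.047 and Rptor at 0.24. The 13 genes of ribosome dormancy, rescue and quality control had a median of -0.057, with 7 lower and 6 higher. Gcn1, an activator of the amino acid stress response, was at -0.30 and Habp4, which binds idle ribosomes, at -0.44, while Ifrd2 was at 0.38 and Ltn1 at 0.27.

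Translation factors and other genes whose messages carry the same tract had a median of 0.012 over 12 genes, with 4 lower and 7 higher. Eef1a1, the elongation factor that delivers transfer RNA, read 11.22, 11.12 and 10.97 in wildtype and 11.38, 11.38 and 11.31 in mutant samples. Every mutant sample was above every wildtype sample, at a difference of 0.25 (SE 0.077; limma, adjusted p = 0.227). Pabpc1, the poly(A)-binding protein, was at 0.27 (limma, adjusted p = 0.227). Fau, which encodes Rps30 as a fusion and which the symbol rule leaves out, was at -0.013 (SE 0.071).

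The mitochondrial ribosomal proteins are encoded in the nucleus for a separate ribosome. Of 77 such genes 64 were lower and 12 higher, with a median of -0.12, and 0 passed. At an unadjusted limma p under 0.05, 16 were lower and 0 higher, or 20.8% of the list. The share lower at that threshold was 11.5% in the cytosolic family, 12.9% of probe sets in the upper quartile of levels and 7.4% of all probe sets. Mrpl38 was at -0.42 (limma, adjusted p = 0.122) and Mrps18a at -0.31 (limma, adjusted p = 0.150). The difference between these families was not tested.

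Other cells of the follicle also contain ribosomes, so their markers were read in the same samples. Of 19 granulosa and cumulus markers 13 were above the background guide, and their summed log2 level was 94.43 to 95.64 in wildtype and 95.49 to 97.44 in mutant samples. Foxl2, Nr5a1, Nr5a2, Wt1 and Gata4 were among those above it, and Amh, Amhr2, Fshr, Kitl, Ptx3 and Tnfaip6 had mean levels under it. The sum of 7 blood, immune and endothelial markers, 5 above the guide, was 34.40 to 35.69 in wildtype and 36.06 to 37.23 in mutant samples. Of 9 theca and stroma markers 2 were above the guide, and their sum was 36.78 to 37.16 against 37.24 to 37.50. The granulosa ranges overlapped between the groups, while the other sums, those of the oocyte markers included, were higher in every mutant than in every wildtype sample. Dim probe sets were higher in the mutant in general. In the second quartile of levels the median of all probe sets was 0.067 and 27.8% were lower. Their sum was also higher in every mutant than in every wildtype sample. In the lowest quartile the median was 0.013 and 42.7% were lower. No marker passed by limma (0 called), and at an unadjusted p under 0.05 3 granulosa and 2 blood markers were higher and 1 granulosa marker was lower. Over all probe sets 7.3% were higher and 7.4% lower at that threshold. Their part in the values above was not tested.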

How the data were processed

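Levels were measured in 3 wildtype and 3 Brwd1 mutant pools of 100 oocytes, with 1 ng of total RNA amplified for each array, per the labels' protocols. The deposited values are log2 values, which the authors made with Affymetrix Expression Console 1.1 and RMA, per the submitters' processing notes. RMA subtracts background, quantile-normalizes and summarises probes, which removes shared shifts. No source used here gives a genome build for the probe sets. Of 35556 probe sets, 23410 had at least 1 gene symbol and 21789 exactly 1.

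Mutant minus wildtype differences were fitted over all 6 arrays without covariates in limma 3.58.1 (R 4.3.3; lmFit, eBayes, two-sided), with Benjamini-Hochberg adjustment over the 23410 probe sets, no filter on level and a threshold of 0.05. The procedure was tested on simulated data. Intervals are 95% limma intervals, and the number of arrays limits their precision. Sample ratios were compared by exact permutation.

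Named were members that passed, the paralogs and main copies, stalk proteins, Rpsa, up to 8 members per direction with the smallest p, genes with several probe sets for the agreement of these, and up to 2 genes of each other list. Rps2, Rps6, Rps18, Rps19, Rps3a1, Rpl5, Rpl12, Rpl30, Larp1, Rptor, Aamp, Ifrd2, Ltn1, Rrs1, Mdn1 and the marker genes were otherwise chosen after their values were seen. Members and lists were chosen with earlier results of these data known. Groups share replicate numbers, but same-numbered samples did not deviate together (correlations of -0.0015, -0.031 and 0.036).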

Additional observations from a re-analysis of the deposited data

How the results depend on the processing

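The count of 1 called ribosomal protein gene was the same at an adjusted threshold of 0.1, which the call of Rps4l could not fail. The call of Rps4l, and with it that count, held with filters on dim probe sets, cyclic loess, median centring, trend and robust settings, and array weights. It ended with the replicate block, where the difference was -0.69 (limma, adjusted p = 0.166), with all probe sets of the table at -0.69 (0.0750), after quantile normalization again at -0.64 (0.0541) and as the mean of its probe sets at -0.49 (0.0630), and the count was then 0. It also ended in each omission of 1 sample, with -0.73 to -0.64 and a count of 0. In checks added after seeing the data it ended for the dimmer probe set at -0.30 (0.171) and when repeated probe sets were counted once, at -0.69 (0.0521). At an unadjusted p under 0.05 the count was 7 lower, but 18 after median centring, 2 after cyclic loess and 12, with 2 higher, under trend and robust settings. Median centring lowers all differences alike, and trend and robust settings also raised the number of probe sets called over the whole array. The share of all probe sets under each setting is not given here, so these counts are not shown to be particular to the family.

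The number of probe sets called, 32, was 76 at an adjusted threshold of 0.1 and 76 with trend and robust settings. It was 1 with the replicate block, with all probe sets, or with repeated probe sets counted once, and 1 to 18 without 1 sample. Same-numbered samples did not deviate together, but so few arrays cannot settle whether replicate numbers pair the samples. Why the calls were lost under the block was not tested. The share called higher was 9 of 32, but 6 of 36 after median centring.

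The family median of -0.047 was -0.10 after median centring, where all probe sets had a median of -0.047, and -0.020 after cyclic loess, with 38 of 61 genes lower. Without 1 sample it ran from -0.050 to -0.035. The large minus small difference of 0.032 was 0.057 after quantile normalization again, 0.061 after cyclic loess, 0.067 as the mean of probe sets, and 0.022 to 0.058 without 1 sample. The ratio of Rpl10l to Rpl10 ran from -0.098 to 0.017 without 1 sample. Of 669 values of 42 other named genes under the alternatives, 12 changed sign, none of them past the threshold. These were Rpl22 at 0.0022 and Fau at 0.0017 after quantile normalization again, Fau at 0.015 after cyclic loess, Rps4x at -0.020 after median centring, a shift common to all probe sets, and Rpl23 at -0.017 and Fau at 0.0033 as means of probe sets. Without 1 sample Rplp2 ran from -0.048 to 0.042, Fau from -0.047 to 0.048, Rpl3l from -0.0067 to 0.098 and Rplp0 from -0.012 to 0.10. The causes were not tested. Signal near background limits Rpl3l, Rpl10l, Rpl12 and Rpl30, for which these probe sets give no usable level.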

Other observations

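Probe sets shared between a ribosomal protein gene and other symbols belong to no gene above. There were 237 of them, with a median log2 difference of -0.0067 between mutant and wildtype, and 127 were lower. None passed over all probe sets (limma, 0 called), and 9 had an unadjusted p under 0.05, where 14.7% of all probe sets did. Their differences ran from -1.49 to 0.22, and the lowest was a probe set that also lists a small nucleolar RNA.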
